A study of Mus musculus with 16 samples.

Results

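The genes described here are 9 members of the adrenergic pathway of the mouse heart, taken from the deposited table by the Ensembl identifiers that map to Adrb1, Adrb3, Adra1a, Adra1b, Adcy5, Adcy6, Adrbk1, Grk5 and Arrb1. They are 9 of 22372 protein-coding genes, and 8 of them were among the 13331 genes that passed the filter on low counts. Adrb3 did not pass it. RNA was sequenced from ventricle pieces of C57BL/6J mice in 4 groups of 4 libraries. The groups were Sham-Veh, TAC-Veh, Sham-THZ1 and TAC-THZ1. Transverse aortic constriction (TAC) tightens a suture around the aortic arch and loads the left ventricle with pressure, and sham surgery leaves the suture out. THZ1, a covalent inhibitor of the transcriptional kinases CDK7, CDK12 and CDK13, was injected into the abdomen at 10 mg/kg as 2 injections daily that began on day 1 and ended on day 60 after the operation, and Veh is its vehicle. This schedule is that of the labels, and the methods of the study describe daily injections at the same total dose a day. The mice were 10 to 12 weeks old when the experiment began. The methods of the study state that all mice were male and give an age range that ends earlier. No allele or transgene was named for any group.

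Noradrenaline from sympathetic nerves and circulating adrenaline act on the heart through beta and alpha1 receptors. Beta receptors couple to the G protein Gs and adenylyl cyclase, and the cyclic AMP made there activates protein kinase A (PKA), which raises the rate and force of contraction. Alpha1 receptors couple to Gq and phospholipase C and are known for their part in growth of the myocyte. Receptor kinases phosphorylate receptors that have bound an agonist, arrestins then bind them and end G protein coupling, and a loss of beta1 receptors with rising receptor kinase activity is a classical feature of heart failure.

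Values are normalized counts, that is, reads per gene divided by a size factor of the library, over 21.4 to 35.8 M reads per library. Fold changes are differences of group means of log2(normalized count + 1) from limma, with the standard error (SE) and a p-value that was Benjamini-Hochberg adjusted over 13331 genes, and a gene was called at an adjusted p under 0.05. Each library is labelled as a separate replicate, and the labels name no sequencing batch. The cardiomyocyte markers fixed for this report summed to between 1.35e+06 and 1.44e+06 normalized counts in Sham-Veh and between 729382 and 1.07e+06 in TAC-Veh, so the libraries were those of heart muscle. The 4 atrial markers summed to between 28.1 and 39.1 normalized counts in Sham-Veh and between 39.2 and 82.3 in TAC-Veh. For the 6 adipocyte markers the sums were 6.19 to 39.1 and 2.15 to 29.0. Of these, Sln, Myl7, Bmp10, Adipoq, Plin1, Lep and Ucp1 stayed under 10 in every library.

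RefSeq start sites were held in the sequence table for 4 of the 9 members. The 250 bases before the start are shown for Adrb1 and Adra1b, which fell with TAC, for Grk5, which rose, and for Adcy5, which was not called. They come from the GRCm38.p6 build and read 5′ to 3′ on the strand of the gene. Capitals mark the GC box GGGCGG and TGACG, the core of a cAMP response element, on either strand. The windows are chr19:56721867-56722116 on the plus strand for Adrb1, chr11:43901238-43901487 on the minus strand for Adra1b, chr16:35154614-35154863 on the plus strand for Adcy5 and chr19:60889499-60889748 on the plus strand for Grk5. Adra1b had 2 starts in the table, and the one farther upstream is shown.
Adrb1: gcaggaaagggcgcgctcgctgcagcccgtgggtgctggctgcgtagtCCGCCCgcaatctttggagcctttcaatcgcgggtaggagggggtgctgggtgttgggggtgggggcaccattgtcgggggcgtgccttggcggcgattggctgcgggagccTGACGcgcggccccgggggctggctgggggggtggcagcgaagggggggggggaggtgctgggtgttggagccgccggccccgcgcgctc
Adra1b: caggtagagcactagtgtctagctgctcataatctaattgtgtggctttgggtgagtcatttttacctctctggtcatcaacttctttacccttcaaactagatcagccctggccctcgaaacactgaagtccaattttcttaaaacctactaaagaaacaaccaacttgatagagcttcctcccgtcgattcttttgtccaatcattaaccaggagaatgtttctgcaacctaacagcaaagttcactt
Adcy5: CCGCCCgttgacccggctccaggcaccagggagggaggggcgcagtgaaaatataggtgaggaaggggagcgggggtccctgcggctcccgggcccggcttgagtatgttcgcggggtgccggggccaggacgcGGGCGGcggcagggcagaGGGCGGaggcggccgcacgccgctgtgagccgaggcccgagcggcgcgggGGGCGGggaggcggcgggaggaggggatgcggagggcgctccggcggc
Grk5: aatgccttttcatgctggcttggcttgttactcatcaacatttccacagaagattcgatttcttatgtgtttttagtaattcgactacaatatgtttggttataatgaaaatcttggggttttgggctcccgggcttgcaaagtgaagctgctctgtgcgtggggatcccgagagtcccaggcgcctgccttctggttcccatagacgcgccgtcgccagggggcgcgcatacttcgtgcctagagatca

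The Adrb1 window held 1 GC box and 1 TGACG, whose first base lay 90 bases before the start, and 74.0% of its bases were G or C. The Adcy5 window held 4 GC boxes and no TGACG, at 78.0% G or C. The Adra1b and Grk5 windows held neither motif, at 41.6% and 49.6% G or C. Among the 32851 windows of the same length in the table, 32.7% held GGGCGG or CCGCCC and 17.8% held TGACG or CGTCA, and the median G or C content was 52.4%. The motifs do not overlap each other in these windows. A match is a run of letters and not a measured binding site.

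The members spanned a wide range of levels in Sham-Veh. Levels of different genes were compared as normalized counts per kb of merged exons. Adcy6, a calcium-inhibited adenylyl cyclase of the myocyte, stood highest at 1005 ± 106 per kb (SD, n = 4). Adrbk1, which encodes the receptor kinase GRK2, followed at 326 ± 17.7 per kb. Adcy5 at 226 ± 28.1 per kb and Grk5 at 201 ± 5.61 per kb overlapped in their libraries. So did Adra1b at 173 ± 15.97 per kb and Adrb1 at 147 ± 19.0 per kb. Arrb1, the gene of beta-arrestin 1, had 70.0 ± 3.99 per kb and Adra1a 37.2 ± 4.80 per kb, each below its neighbour in every library. The level of Adra1a rests on an exon length of 8728 bases, against 4282 bases in its longest transcript. With the longest transcript as the length, Arrb1 stood at 109.7 per kb, still below Adrb1.

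The order was different in TAC-Veh. Adcy6 still had the highest mean, at 532 ± 116 per kb, but its libraries overlapped those of Grk5, which stood at 358 ± 66.1 per kb and had moved from the fourth place to the second, or to the third when the longest transcript set the length. Adrbk1 at 295 ± 33.4 per kb overlapped with Grk5. Adrb1 at 89.6 ± 32.1, Arrb1 at 88.1 ± 19.1 and Adra1b at 52.1 ± 16.2 per kb overlapped from one to the next. With the longest transcript as the length, Arrb1 was at 138 per kb, above Adrb1. In TAC-THZ1 the means of Adcy6, Adrbk1, Adcy5 and Grk5 stood in the order of Sham-Veh, with Adcy6 at 892 ± 102 per kb. The libraries of Adcy5 (227 ± 30.6 per kb) and Grk5 (208 ± 23.3 per kb) overlapped there. In Sham-THZ1 they also overlapped, and the mean of Grk5 (256 ± 23.2 per kb) was above that of Adcy5 (233 ± 4.26 per kb).

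Pressure overload was compared first, as TAC-Veh against Sham-Veh. Transcripts of the beta1 receptor, the alpha1 receptors Adra1a and Adra1b and Adcy6 fell, and Grk5 rose. Of the 8 members tested, 4 were called lower and 1 higher. Over all genes tested, 23.6% were called lower and 21.4% higher. The median log2 fold change was -0.48 for the members and -0.0030 for all genes tested. In bulk tissue, fewer cells of a type and less RNA per cell cannot be told apart.

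**Figure D1:**
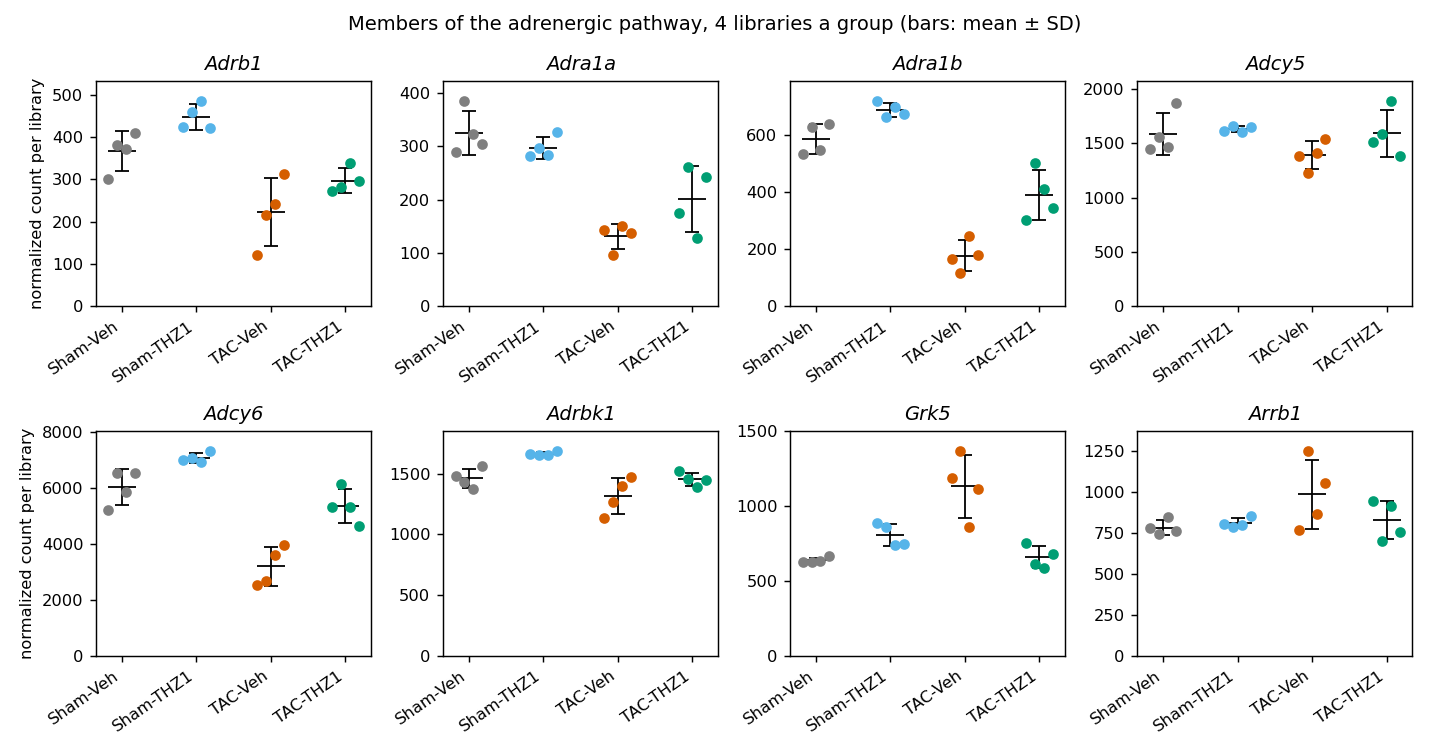
Normalized count of each of the 8 members tested, by library (points) with the mean and SD of the group (bars), for 4 libraries in each of 4 groups on a linear axis from 0. Adra1b was 534 to 638 in Sham-Veh and 114 to 247 in TAC-Veh, and Grk5 was 626 to 664 and 863 to 1367.

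Adrb1, the beta1 receptor, is the main receptor for noradrenaline in heart muscle. It lies at chr19:56796862-56799352 on the plus strand of NCBIM37 (mm9) as 1 exon. Its normalized counts were 300.2, 383, 372 and 411 in Sham-Veh and 119.9, 217, 243 and 313 in TAC-Veh. The groups overlapped by a single pair of libraries, since the highest TAC-Veh library lay just above the lowest Sham-Veh library. This was a log2 fold change of -0.78 with limma (SE 0.20, adjusted p 0.00438). TAC-Veh replicate 1 had the lowest value, and without it the difference was -0.52 (adjusted p 0.00355).

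Adra1b, an alpha1 receptor that couples to Gq, had the largest fall on the log2 scale among the 8 members tested. It lies at chr11:43588108-43714712 on the minus strand. Sham-Veh libraries had 534, 628, 546 and 638 normalized counts and TAC-Veh libraries 163, 114, 247 and 179.7. Every TAC-Veh library lay below every Sham-Veh library, which held for 19.1% of all genes in that direction. The log2 fold change by limma was -1.78 (SE 0.18, adjusted p 1.78e-06).

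Adra1a, the other alpha1 receptor among the members, lies at chr14:67254088-67390005 on the plus strand. It fell from 289, 384, 323 and 304 normalized counts to 142, 96.5, 149.6 and 136. The groups did not overlap, and the log2 fold change was -1.31 (SE 0.19, adjusted p 4.02e-05).

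Adrb3, the beta3 receptor, is known as a receptor of fat cells and is expressed at a low level in heart muscle. It had 0 reads in all 8 sham libraries. TAC-Veh replicate 2 had 2 reads, and TAC-THZ1 replicates 1, 3 and 4 had 1 read each. A library with 0 reads allows up to 3 reads, or 0.140 reads per M reads in the shallowest library, and limits of this kind cover counting error only. No difference of Adrb3 was detectable at this depth.

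Adcy6 and Adcy5 make cyclic AMP in response to Gs. Adcy6, at chr15:98420425-98438064 on the minus strand, had 5222, 6553, 5853 and 6554 normalized counts in Sham-Veh and 2534, 2691, 3624 and 3968 in TAC-Veh. The groups did not overlap, and the log2 fold change was -0.94 (SE 0.12, adjusted p 2.28e-05). Adcy5, at chr16:35154963-35305823 on the plus strand, had 1451, 1554, 1462 and 1873 in Sham-Veh and 1387, 1228, 1409.8 and 1540.0 in TAC-Veh. These groups overlapped, and the 95% interval of its log2 fold change ran from -0.39 to 0.018 (adjusted p 0.128).

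Grk5, a receptor kinase bound to the membrane that also enters the nucleus, moved the other way. It lies at chr19:60965652-61168456 on the plus strand. Its counts were 628, 626, 632 and 664 in Sham-Veh and 1189.8, 1367, 863 and 1112 in TAC-Veh. Every TAC-Veh library was higher, as for 18.2% of all genes, and the log2 fold change was 0.81 (SE 0.11, adjusted p 3.59e-05).

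Adrbk1 and Arrb1 were not called with TAC. Adrbk1, at chr19:4286001-4306222 on the minus strand, had 1478, 1429, 1376 and 1562 normalized counts in Sham-Veh and 1136, 1268, 1397 and 1476 in TAC-Veh. Its groups overlapped, and the difference on the log2 scale was -0.15 (SE 0.070, adjusted p 0.0875). Without TAC-Veh replicate 4, the highest of its group, this was -0.21 and was called (adjusted p 0.0166), and without replicate 1, the lowest, it was -0.083 (adjusted p 0.278).

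Arrb1, at chr7:106683976-106755281 on the plus strand, had 779, 743, 845 and 762 normalized counts in Sham-Veh and 768, 1249, 866 and 1057 in TAC-Veh. The TAC-Veh libraries were more spread out and overlapped the sham range. On the log2 scale the difference was 0.31 (SE 0.12, adjusted p 0.0507). It was called without TAC-Veh replicate 1 (0.42, adjusted p 0.00684) or replicate 3 (0.36, adjusted p 0.0353), whereas without replicate 2 it was 0.19 (adjusted p 0.190). It was also called without TAC-THZ1 replicate 1 or 2, which changed only the shared spread (adjusted p 0.0477 and 0.0436). The count models on recovered reads called it as well, with an adjusted p of 0.0257 from DESeq2 and 0.0363 from edgeR. So did limma with array weights (adjusted p 0.0214), upper quartile scaling (0.0438), a robust variance model (0.0490) or a minimum mean of 50 (0.0498). In all, 10 of 28 other settings called it.

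Markers of other cells moved with TAC as well. Of the 7 cardiomyocyte markers, 3 were called lower and 0 higher with a median log2 fold change of -0.40. The 6 fibroblast markers summed to 20596 to 23138 normalized counts in Sham-Veh and to 56587 to 120697 in TAC-Veh, and 4 were called higher. The 5 macrophage markers in the table summed to 3159 to 3720.1 in Sham-Veh and 4829 to 6174 in TAC-Veh, and 3 were called higher. Of 5 endothelial markers, 1 was called higher and 2 lower. Of 7 smooth muscle and pericyte markers, 1 was called higher and 3 lower. Over all genes 21.4% were called higher and 23.6% lower. The part of these shifts in the members' changes was not tested.

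THZ1 in mice with TAC was compared as TAC-THZ1 against TAC-Veh, to ask which of these transcripts differed with the inhibitor under pressure overload. Adra1b, Adcy6 and Adra1a were higher with THZ1 and Grk5 was lower. Of the 8 members, 3 were called higher and 1 lower, against 15.1% and 14.2% of all genes. Their median log2 fold change was 0.34, against 0.015 for all genes tested. This comparison and the one with TAC share the TAC-Veh libraries and are not independent, so each has its own values here.

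**Figure D2:**
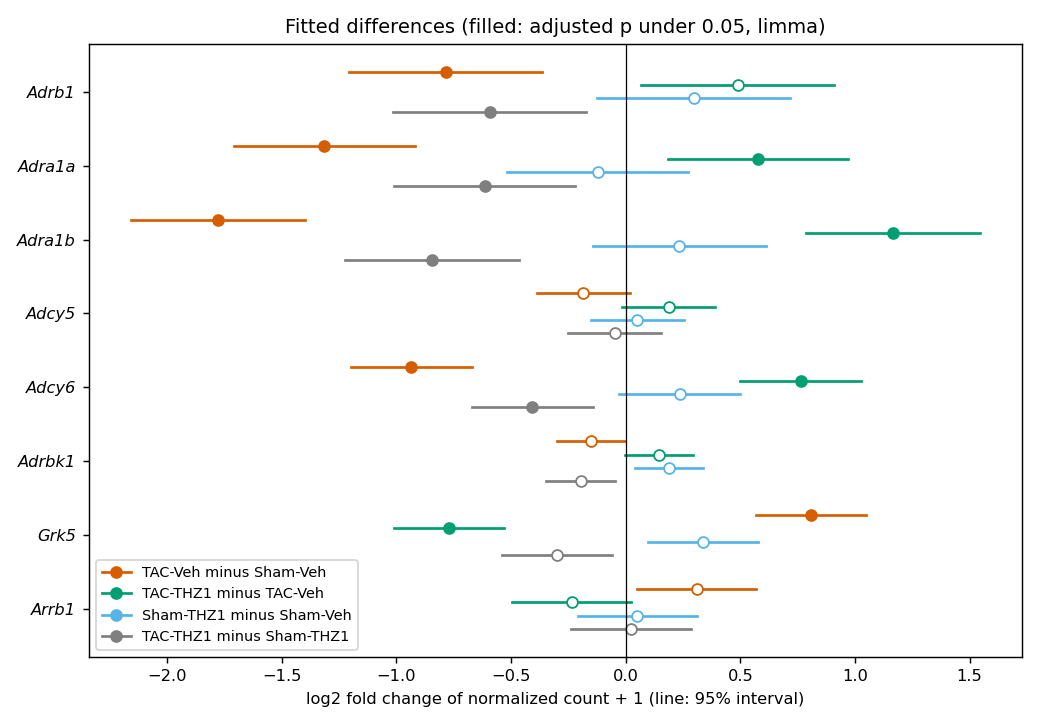
Fitted log2 fold change of each of the 8 members in 4 comparisons (points, filled where the adjusted p was under 0.05) with its 95% interval (lines). Adra1b was at -1.78 for TAC-Veh minus Sham-Veh and 1.17 for TAC-THZ1 minus TAC-Veh, and Grk5 at 0.81 and -0.77.

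Adra1b had 300.3, 502, 410.1 and 345 normalized counts in TAC-THZ1, all above the 4 TAC-Veh libraries, as for 9.53% of all genes. This gave a log2 fold change of 1.17 with limma (SE 0.18, adjusted p 3.05e-04). The same libraries lay below every Sham-THZ1 library, at 718, 663, 699 and 673.

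Adcy6 had 5336, 6155, 5322 and 4657 normalized counts in TAC-THZ1. These did not overlap TAC-Veh, and 3 of them fell inside the Sham-Veh range. The rise on the log2 scale was 0.76 (SE 0.12, adjusted p 4.88e-04).

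Grk5 had 751, 612, 588 and 679.9 normalized counts in TAC-THZ1, all below TAC-Veh, as for 10.5% of all genes. The difference on the log2 scale was -0.77 (SE 0.11, adjusted p 2.45e-04). The TAC-THZ1 libraries lay on both sides of the narrow Sham-Veh range.

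Of the 4 calls, only that of Adra1a was lost when a single library was left out. Over the other settings of the fit, the adjusted p reached 0.0187 for Adra1b, 0.0193 for Adcy6 and 0.0148 for Grk5. Adra1a had 175, 261, 127 and 241 normalized counts in TAC-THZ1, and TAC-THZ1 replicate 3 lay inside the TAC-Veh range. The difference was 0.58 on the log2 scale (SE 0.19, adjusted p 0.0286). The call was lost without TAC-Veh replicate 2 (0.44, adjusted p 0.105), without TAC-THZ1 replicate 2 (0.43, adjusted p 0.104) or replicate 4 (0.47, adjusted p 0.0880), and in a fit of these 2 groups alone (adjusted p 0.132).

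Adrb1 had 272, 281, 339 and 297 normalized counts in TAC-THZ1, a narrower range than in TAC-Veh, and 3 of them lay inside the TAC-Veh range. The log2 fold change was 0.49 (SE 0.20, adjusted p 0.0748) and was not called. Without TAC-Veh replicate 4 it was 0.68 and called (adjusted p 0.0110), and without TAC-Veh replicate 1 it was 0.22 (adjusted p 0.198).

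Adcy5, Adrbk1 and Arrb1 were not called with THZ1 in TAC. Their log2 fold changes were 0.19 for Adcy5 (adjusted p 0.150), 0.15 for Adrbk1 (adjusted p 0.131) and -0.24 for Arrb1 (adjusted p 0.161). Without TAC-Veh replicate 4, Adrbk1 was called at 0.20 (adjusted p 0.0314), and without TAC-Veh replicate 1, Arrb1 was called at -0.35 (adjusted p 0.0281). Without TAC-Veh replicate 1, Adrbk1 was at 0.076 (adjusted p 0.361), and without TAC-Veh replicate 2, Arrb1 was at -0.11 (adjusted p 0.494). The TAC-THZ1 libraries of Adcy5 had 1516, 1585, 1885 and 1379 normalized counts, those of Adrbk1 1519, 1454, 1387 and 1451, and those of Arrb1 942, 703, 911 and 756.

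The cell markers also differed in this comparison. Of 7 cardiomyocyte markers, 5 were called higher with a median log2 fold change of 0.47, and 4 of 6 fibroblast markers were called lower. Fibroblast markers summed to 24155 to 35975 normalized counts in TAC-THZ1. Of the 5 macrophage markers 0 were called, and they summed to 3338 to 6429 in TAC-THZ1. Of 5 endothelial markers, 1 was called higher and 3 lower. Of 7 smooth muscle and pericyte markers, 1 was called higher and 2 lower. Over all genes 15.1% were called higher and 14.2% lower. The part of the cell markers' shifts in the members' differences was not tested.

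THZ1 without pressure overload was compared as Sham-THZ1 against Sham-Veh. None of the 8 members was called by limma, DESeq2 or edgeR, and over all genes limma called 0.0675%. At an unadjusted p under 0.05 there were 2 members, Adrbk1 and Grk5, and 6.88% of all genes. Even so, 5 of the 8 members had all 4 Sham-THZ1 libraries above all 4 Sham-Veh libraries and none had them below, against 6.29% and 5.05% of all genes. These 5 were Adrb1, Adra1b, Adcy6, Adrbk1 and Grk5.

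The differences in sham were small. Grk5 had 885, 858, 743 and 749.7 normalized counts in Sham-THZ1, which was 0.34 higher on the log2 scale (SE 0.11, adjusted p 0.622). Adrbk1 had 1665, 1656, 1652 and 1686, which was 0.19 higher (SE 0.070, adjusted p 0.653). The Sham-THZ1 libraries of Adrbk1 were closer together than those of any other group of this gene.

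Adrb1 had 425, 461, 485 and 422 normalized counts in Sham-THZ1 (log2 fold change 0.30, adjusted p 0.833). Adcy6 had 7001, 7071, 6946 and 7329.7 (log2 fold change 0.24, adjusted p 0.770), and Adra1b had a log2 fold change of 0.23 (adjusted p 0.871). A fit of the 2 sham groups alone, with its smaller spread, called Grk5 (adjusted p 0.0120), Adrbk1 (adjusted p 0.0313) and Adcy6 (adjusted p 0.0460), where it called 3.49% of all genes. The 3 other members overlapped Sham-Veh, with 283 to 326 normalized counts of Adra1a, 1603 to 1663 of Adcy5 and 785 to 852 of Arrb1 in Sham-THZ1. Of the cardiomyocyte and fibroblast markers, limma called 0 in this comparison.

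TAC under THZ1 was compared as TAC-THZ1 against Sham-THZ1, which asks what of the difference with pressure overload was present with the inhibitor on board. Adrb1, Adra1a, Adra1b and Adcy6 were called lower, 4 of 8 members against 12.8% of all genes, and none was called higher, against 11.4%. All 4 had TAC-THZ1 libraries entirely below Sham-THZ1, as did Adrbk1, against 17.7% of all genes, and none had them entirely above, against 15.7%. The log2 fold changes were -0.85 for Adra1b (SE 0.18, adjusted p 0.00429), -0.61 for Adra1a (SE 0.19, adjusted p 0.0258), -0.59 for Adrb1 (SE 0.20, adjusted p 0.0405) and -0.41 for Adcy6 (SE 0.12, adjusted p 0.0266). Grk5 was at -0.30 (adjusted p 0.0636) and Adrbk1 at -0.20 (adjusted p 0.0513).

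Of these, the call of Adra1b alone held without each library in turn. The call of Adrb1 was lost without Sham-Veh replicate 2 or 3, any Sham-THZ1 replicate, or TAC-THZ1 replicate 1, 2 or 4 (adjusted p 0.0511 to 0.0979). That of Adcy6 was lost without any Sham-THZ1 replicate or TAC-THZ1 replicate 1, 3 or 4 (adjusted p 0.0513 to 0.0800), and that of Adra1a without Sham-THZ1 replicate 2 or 4 or TAC-THZ1 replicate 1 or 3 (adjusted p 0.0537 to 0.0781). Adrbk1 was called without TAC-Veh replicate 1, 3 or 4 (adjusted p 0.0140 to 0.0473), and Grk5 without TAC-Veh replicate 2 or 3 or TAC-THZ1 replicate 1 (adjusted p 0.0210 to 0.0491). Both were also called in a fit of these 2 groups alone (adjusted p 0.00648 and 0.0242) and with array weights (0.00651 and 0.0120). DESeq2 (adjusted p 0.0329) and a minimum mean of 50 (0.0479) called Adrbk1 too. The Adrb1 call was also lost with no filter on low counts (adjusted p 0.0502) and with upper quartile scaling (0.0519).

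The interaction tests whether the THZ1 difference in TAC differed from that in sham. It was called for Grk5, with an interaction of -1.11 on the log2 scale (SE 0.16, adjusted p 0.00209), from 0.34 in sham to -0.77 in TAC. It was also called for Adra1b, at 0.93 (SE 0.25, adjusted p 0.0301), from 0.23 to 1.17. Over all genes 10.0% were called. Adcy6 at 0.53 (adjusted p 0.0653), Adra1a at 0.70 (adjusted p 0.0999) and Adrb1 at 0.19 (adjusted p 0.711) were not called by limma. Adcy6 was called without TAC-Veh replicate 3 or 4 (adjusted p 0.0296 and 0.0177) and by DESeq2 (adjusted p 0.0411). Adra1a was called without TAC-THZ1 replicate 3 (adjusted p 0.0193), with array weights (adjusted p 0.0315) and by DESeq2 (adjusted p 0.0433). The Grk5 call held without each library in turn, and the Adra1b call was lost without Sham-Veh replicate 2 or 4, Sham-THZ1 replicate 1, 2 or 4, or TAC-THZ1 replicate 2 (adjusted p 0.0510 to 0.0650).

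Shares within each gene family were computed in every library from normalized counts per kb. A share does not depend on the scaling of the library, and it is given as a description. The shares of a family sum to the whole, so the share of a gene also moves when the level of another gene does. The families were the alpha1 receptors, the adenylyl cyclases, the receptor kinases and the beta-arrestins.

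**Figure D3:**
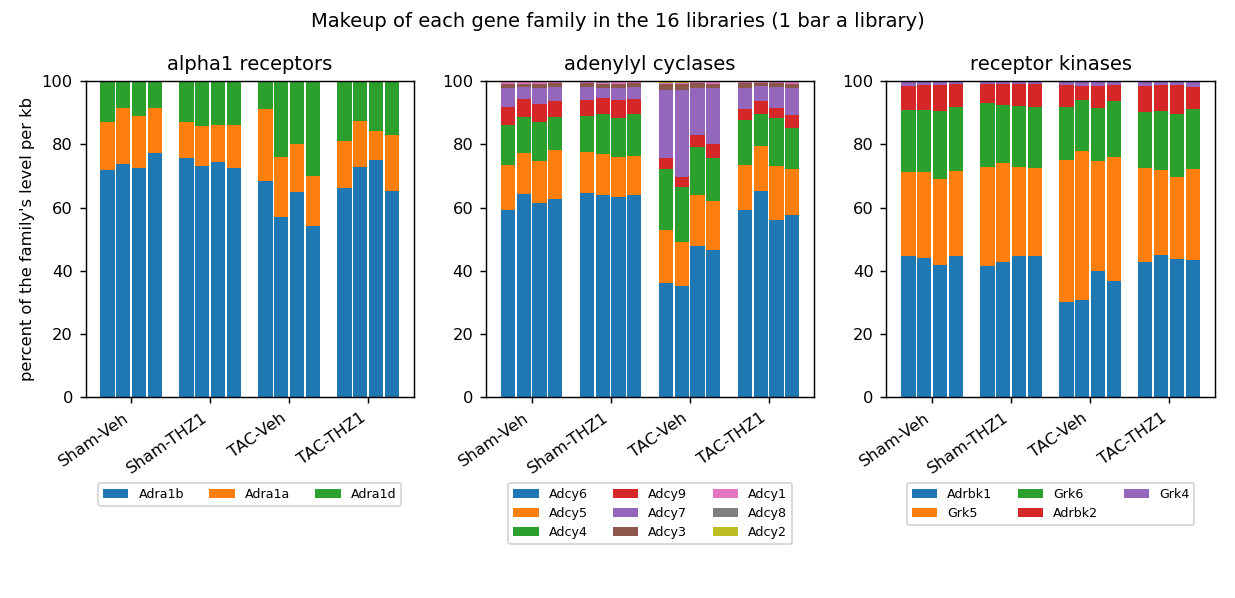
Share of each gene in the summed level per kb of its family, 1 stacked bar per library, for alpha1 receptors, adenylyl cyclases and receptor kinases. In the adenylyl cyclases, Adcy6 was 59.2% to 64.3% in Sham-Veh and 35.2% to 48.0% in TAC-Veh, and Adcy7 was 3.79% to 6.15% and 14.9% to 27.5%.

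Among the adenylyl cyclases, Adcy6 made up 61.9% ± 2.13 (SD, n = 4) in Sham-Veh, 41.4% ± 6.79 in TAC-Veh and 59.5% ± 3.92 under TAC-THZ1. Adcy5 made up 13.9% ± 1.07, 15.6% ± 1.31 and 15.1% ± 1.31 in the same groups. Adcy7, a cyclase known from blood cells, went from 4.82% ± 1.04 in Sham-Veh to 20.4% ± 5.49 in TAC-Veh, against 6.67% ± 1.71 in TAC-THZ1. Its counts were 571, 407, 511 and 468 in Sham-Veh, 1605, 2214, 1181 and 1585 in TAC-Veh and 626, 458, 665 and 747 with THZ1 after TAC. Adcy7 was called in both comparisons, with log2 fold changes of 1.72 (SE 0.17, adjusted p 1.22e-06) and -1.38 (SE 0.17, adjusted p 6.13e-05).

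Among the alpha1 receptors, Adra1b made up 73.8% ± 2.33 in Sham-Veh and 61.1% ± 6.59 in TAC-Veh, or 63.8% and 51.7% when the longest transcript set the length. Adra1d, the third alpha1 receptor, had 40.2 to 54.1 normalized counts in Sham-Veh and 11.8 to 56.2 in TAC-Veh and was not called (log2 fold change -0.59, adjusted p 0.133). Among the receptor kinases, Grk5 made up 27.0% ± 0.214 in Sham-Veh, 41.4% ± 5.50 in TAC-Veh and 27.9% ± 1.74 in TAC-THZ1. Adrbk1 made up 43.8% ± 1.35, 34.4% ± 4.67 and 43.7% ± 0.997, while its own level was not called with TAC or with THZ1 in TAC. Arrb1 made up 37.8% ± 1.37 of the beta-arrestin transcripts in Sham-Veh and 37.6% ± 2.55 in TAC-Veh, against 33.3% ± 2.25 in TAC-THZ1. The highest TAC-THZ1 library, at 35.7%, lay just below the lowest TAC-Veh library, at 36.0%. The level of Arrb1 was not called with THZ1 in TAC.

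The rest of the pathway was read from 8 lists with 101 genes, of which 95 were tested. With TAC, 19 were called higher and 32 lower, against 21.4% and 23.6% of all genes, with a median log2 fold change of -0.10. With THZ1 in TAC, 22 were called higher and 20 lower, against 15.1% and 14.2% of all genes, with a median of 0.034. In TAC-THZ1 minus Sham-THZ1, 31 were called, against 24.2% of all genes. The interaction was called for 15, against 10.0% of all genes. In sham, 0 were called by limma, DESeq2 or edgeR, where limma called 0.0675% of all genes. By limma, 15 had an unadjusted p under 0.05, as did 6.88% of all genes.

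**Figure D4:**
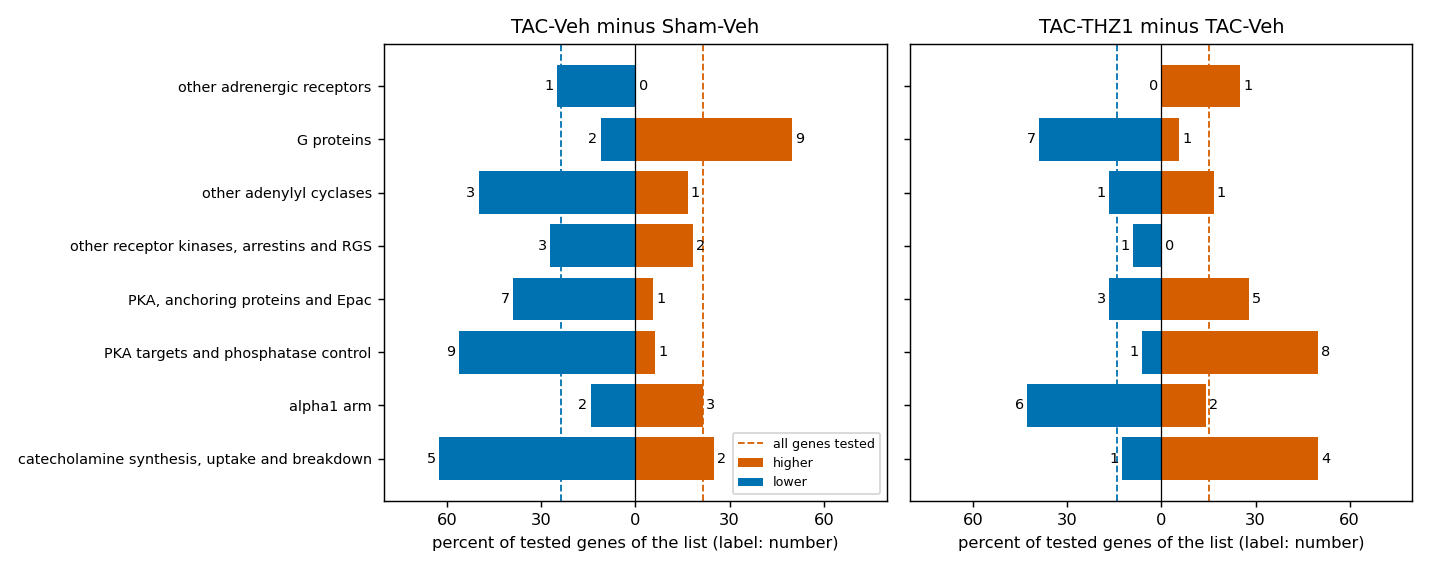
Percent of the tested genes of each pathway list called higher (right of 0) or lower (left of 0), with the number of genes beside each bar, for TAC-Veh minus Sham-Veh and TAC-THZ1 minus TAC-Veh. Dashed lines give the percent of all genes tested, 21.4% higher and 23.6% lower on the left and 15.1% and 14.2% on the right.

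Among the G proteins, 9 of 18 tested were called higher with TAC and 2 lower, against 21.4% and 23.6% of all genes. Their median log2 fold change was 0.15. Gnai3, an inhibitory alpha subunit, lay between 666 and 762 normalized counts in Sham-Veh and between 856 and 1093 in TAC-Veh (log2 fold change 0.42, adjusted p 7.44e-04), and Gnao1 rose by 0.79 on the log2 scale (adjusted p 5.91e-05). Gng7 fell by 1.29 on the log2 scale (adjusted p 0.00133). With THZ1 in TAC, 7 were called lower, Gnai3 and Gnao1 among them, and only Gna11 was called higher. Over all genes 14.2% were called lower and 15.1% higher. Gnas, the alpha subunit of Gs, was not called with TAC (-0.10, adjusted p 0.192) or with THZ1 in TAC (0.15, adjusted p 0.0729).

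The targets of PKA in the myocyte and their phosphatase control had 9 of 16 genes called lower with TAC and 1, Crem, called higher. The shares of all genes were 23.6% and 21.4%. The median log2 fold change of the list was -0.32. Ryr2, the calcium release channel, fell by 0.86 on the log2 scale (adjusted p 1.37e-05), Cacna1c, the pore of the L-type calcium channel, by 0.56 (adjusted p 3.70e-05), and Kcnq1, a potassium channel subunit, by 0.61 (adjusted p 5.19e-05). Pln, the inhibitor of the calcium pump of the sarcoplasmic reticulum, had 145627 to 163293 normalized counts in Sham-Veh, between 65741 and 106287 in TAC-Veh and 114298 to 159503 with THZ1 after TAC. With THZ1 in TAC, 8 genes of this list were called higher and only Crem was called lower, against 15.1% and 14.2% of all genes. Ryr2 and Pln are also on the list of cardiomyocyte markers.

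PKA subunits, inhibitors, anchoring proteins and the Epac genes had 7 of 18 called lower with TAC and 1 higher, at a median of -0.17. The shares of all genes were 23.6% and 21.4%. Pkia, a PKA inhibitor, fell by 0.72 on the log2 scale (adjusted p 1.09e-04), and the anchoring proteins Akap1 and Akap7 fell by 0.61 and 0.51 (adjusted p 1.66e-04 and 2.69e-04). Prkar1a, a regulatory subunit, was called higher at 0.60 (adjusted p 0.00340), and its groups overlapped. With THZ1 in TAC, 5 genes were called higher and 3 lower, Prkar1a among the latter (-0.62, adjusted p 0.00535). Over all genes 15.1% were called higher and 14.2% lower.

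The alpha1 arm of phospholipase C, protein kinase C, IP3 receptors and Trpc channels had 3 of 14 called higher and 2 lower with TAC. Neither share was above that of all genes (21.4% higher and 23.6% lower). Prkce fell by 0.77 on the log2 scale (adjusted p 3.47e-05), while Prkcd rose by 0.48 (adjusted p 0.00107). With THZ1 in TAC, 6 were called lower and 2 higher, against 14.2% and 15.1% of all genes. The 6 included all 3 IP3 receptor genes. Itpr2 was at -0.52 (adjusted p 0.00395).

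Among the genes of catecholamine synthesis, uptake and breakdown, 5 of 8 tested were called lower with TAC and 2 higher, at a median of -1.12. The shares of all genes were 23.6% and 21.4%. Maob, a monoamine oxidase, fell from 1387, 1549, 1507 and 1529 normalized counts to 549, 468, 639 and 728 (log2 fold change -1.34, adjusted p 4.90e-07). Slc22a3, a transporter that takes catecholamines into non-neuronal cells, fell by 2.13 on the log2 scale (adjusted p 3.48e-05).

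With THZ1 in TAC, Maob and Slc22a3 differed the other way. Maob was called at 0.77 (adjusted p 2.63e-04) and Slc22a3 at 1.32 (adjusted p 0.00391). Ddc, the decarboxylase that makes dopamine, had 58.6 to 83.1 normalized counts in Sham-Veh, between 25.03 and 40.03 in TAC-Veh and 67.7 to 136 with THZ1 after TAC. Th and Slc6a2, the defining genes of noradrenergic nerves, were under 10 normalized counts in every library and were not tested. The sum of the list for sympathetic neurons and Schwann cells, which shares Th, Dbh and Slc6a2, was 237 to 263 in Sham-Veh, 56.4 to 122 in TAC-Veh and 117 to 177 with THZ1 after TAC, and its part in these differences was not tested.

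The remaining receptors, cyclases and regulators follow. Adra2b had 26.4 to 32.1 normalized counts in Sham-Veh and 10.6 to 14.9 in TAC-Veh (log2 fold change -1.14, adjusted p 9.84e-04). Adcy9 fell by 0.93 on the log2 scale (adjusted p 1.90e-05), and its libraries with THZ1 in TAC overlapped TAC-Veh (0.22, adjusted p 0.183). Adcy8 fell from 20.2 to 27.4 to 0 to 9.37, counts so low that its fitted fold change depends on the pseudocount. Of the 11 other receptor kinases, arrestins and regulators of G protein signalling, 2 were called higher with TAC and 3 lower. These shares were close to those of all genes (21.4% higher and 23.6% lower). Grk4 (0.48, adjusted p 0.0398) and Rgs4 (0.30, adjusted p 0.0311) were called higher. Rgs6 (-0.82, adjusted p 4.49e-04), Rgs2 (-0.84, adjusted p 0.00458) and Rgs5 (-0.38, adjusted p 0.00458) were called lower, and Rgs5 is also a pericyte marker.

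The genes most like each member over the 16 libraries were taken by Pearson's r of log2 values, which reflects group means and is a description. Adra1b was most like 1110020G09Rik and Cs, the gene of citrate synthase (r = 0.988 for Cs). Adcy6 was most like Cacna1h (r = 0.985) and Zmynd8 (r = 0.981), Adrb1 most like Zhx2 (r = 0.970) and Plekhh3 (r = 0.969), and Adra1a most like Ankrd32 (r = 0.971) and Vldlr (r = 0.969). Grk5 was most like Ltbp3 (r = 0.937) and Fbln5 (r = 0.931), both genes of the extracellular matrix, and Arrb1 most like Mob1a (r = 0.926) and Plekho2 (r = 0.917). Adrbk1 was most like Gga1 (r = 0.951) and Zfp219, and Adcy5 had the weakest likeness, with Trim55 (r = 0.855) and Irx3 (r = 0.850). Between members, r was 0.952 for Adcy6 and Adra1b, 0.896 for Adcy6 and Adrb1 and -0.741 for Grk5 and Adra1b.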

How the data were processed

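Per the methods of the study and the submitters' processing notes, the authors aligned reads of stranded mRNA libraries to mm9 with TopHat2 2.1.1, counted reads per GENCODE gene with HTSeq in reverse-stranded mode, and normalized all mouse libraries in 1 DESeq2 run. The HTSeq and DESeq2 versions are not given in the sources used here. The deposited signal is thus a count divided by a size factor, not a raw count. Within each library, 100% of values were whole multiples of 1 step, to within 0.01 of a read, which gave back the reads (21.4 to 35.8 M per library). Replicates of a group differed by more than counting noise (chi-square per degree of freedom 2.98 to 98.0). It was 4.69 to 7.70 in Sham-Veh and 2.98 to 6.82 in Sham-THZ1, against 53.2 to 98.0 in TAC-Veh and 10.3 to 57.3 in TAC-THZ1.

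Because the values are normalized, limma 3.58.1 in R 4.3.3 was run on log2(normalized count + 1) over all 16 libraries with 1 mean per group and a trend of variance on mean, for genes with at least 10 normalized counts in at least 4 libraries. The pseudocount of 1 understates changes of low genes. P-values were adjusted over all 13331 genes within each contrast. The groups shared 1 estimate of the spread, though TAC libraries were more spread out than sham libraries. With only the groups compared in the fit, 10.5% of all genes were called with THZ1 in TAC, against 29.4%. In sham, 3.49% were called in such a fit, against 0.0675%. The calls of DESeq2 1.42.0 and the quasi-likelihood test of edgeR 4.0.16 on the recovered reads, rounded to whole numbers, were an alternative, as were the pseudocount, the filter, the scaling, the groups fitted, the variance model, a fold threshold and leaving out each library. All 22372 genes were matched to GENCODE on NCBIM37, and no exon of a member overlapped another annotated gene. Promoter sequences came from RefSeq on GRCm38.p6, a different build. The models were run on simulated counts that had the same spread in every group. That run cannot tell how they behave where the spread differs between groups, as it does here.

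The members and lists were chosen with earlier results of these data known. The genes named are all members and, from each pathway list, the 3 with the smallest adjusted p with TAC and those called in sham or in the interaction, with 2 most alike genes per member. A few genes that this rule takes in are not reported here and stand only in the counts. Gnas, Gna11, Grk4, Crem, Dbh, Th, Slc6a2 and the genes of small counts were named after their values were seen. Figures were drawn with Python 3.11.15 and Matplotlib 3.10.9.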

Additional observations from a re-analysis of the deposited data

Results flagged for a closer look

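In Sham-Veh, the Grk5 value of replicate 4, 664 normalized counts, stood apart from the other 3, which lay between 626 and 632. Its gap made up 0.849 of the range of the group, above the critical value of 0.829 for 4 libraries. Of 32 groups of members looked at, this was the only one, and about 1 in 20 would be expected by chance.

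Among the members and pathway genes reported here, the THZ1 difference in TAC differed from that in sham for 16. This is by the interaction of the limma fit, which was called for 10.0% of all genes. For Adra1b it was 0.93 and for Grk5 -1.11, both with values by library in the report. Among genes of the receptors and G proteins, the interaction was 1.20 for Adra2b (adjusted p 0.0340) and -0.35 for Gng12 (adjusted p 0.0267). It was -1.23 for Adcy7 (adjusted p 0.00595), -0.57 for Rgs4 (adjusted p 0.0284), -0.67 for Prkar1a (adjusted p 0.0499) and 0.46 for Pkig (adjusted p 0.0245).

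Among targets of PKA, the interaction was 0.55 for Kcnq1 (adjusted p 0.0137), 0.70 for Pln (adjusted p 0.0327), 0.65 for Tnni3 (adjusted p 0.0327) and 0.79 for Cacnb2, a subunit of the calcium channel (adjusted p 0.0111). For the IP3 receptor Itpr2 it was -0.58 (adjusted p 0.0367). In the catecholamine list it was 0.66 for Maob (adjusted p 0.0209), 1.17 for Ddc (adjusted p 0.0216) and 1.56 for Slc18a2, the vesicular monoamine transporter (adjusted p 0.0379). Slc18a2 had 3.96 to 5.72 normalized counts in TAC-Veh, near the limit of these libraries.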

How the results depend on the processing

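Of 1112 comparisons of a member's log2 fold change with its value under another setting, 1035 kept direction and call, 32 lost the call, 39 gained it and 6 changed sign. The sign changes were all of differences that were not called, and their causes were not tested. Leaving out each library in turn, the interaction ran from -0.078 (without TAC-Veh replicate 1) to 0.38 for Adrb1 and from -0.11 to 0.012 (without TAC-Veh replicate 4) for Adrbk1. TAC-THZ1 minus Sham-THZ1 ran from -0.13 to 0.019 (without TAC-THZ1 replicate 4) for Adcy5 and from -0.043 (without TAC-THZ1 replicate 1; also negative without replicate 3) to 0.098 for Arrb1, which was -0.0067 with array weights.

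With an added fold threshold (1 on the log2 scale with TAC, 0.89 otherwise), the calls came to 2 members with TAC, 1 with THZ1 in TAC and 0 in TAC-THZ1 minus Sham-THZ1, and 11, 6 and 1 pathway genes, with 4 for the interaction. The share of all genes at this threshold was not computed, so these counts cannot be set against it. With only the groups compared, 3 members and 6 pathway genes were called in sham (3.49% of all genes) and 12 pathway genes with THZ1 in TAC (10.5% of all genes). With array weights, 2 members and 11 pathway genes were called in sham (3.85% of all genes), 26 pathway genes with THZ1 in TAC (18.1%) and 50 in TAC-THZ1 minus Sham-THZ1 (37.6%). DESeq2 called 4 members for the interaction (13.8% of all genes). Without each library in turn, members called were 1 to 6 in TAC-THZ1 minus Sham-THZ1 and 1 to 3 for the interaction, pathway genes 18 to 39 and 6 to 26, and of all genes 14.8% to 31.5% and 5.18% to 18.6%.

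The replicate numbers did not pair the libraries: of 24 pairs of same-numbered libraries, 2 had a correlation of deviations over 0.1 (-0.43 to 0.16). With the replicate number as a block, the calls came to 5 members with TAC, 5 with THZ1 in TAC (Adrb1 added, adjusted p 0.0386), 0 in sham, 5 in TAC-THZ1 minus Sham-THZ1 (Grk5 added, adjusted p 0.0417) and 2 for the interaction, against 43.8%, 28.1%, 0.0525%, 22.8% and 8.51% of all genes. With 4 libraries a group, differences as small as those in sham may be missed, and genes under 10 normalized counts, Adrb3 among them, were below what this depth could test.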
